A study of Arabidopsis thaliana with 18 samples.

Results

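Dark-grown Arabidopsis thaliana seedlings of a quadruple mutant in FORKED-LIKE genes were compared with dark-grown wild type in 6 of the 18 libraries of the series. The mutant libraries, fl4_dark 1 to 3, carry the genotype fkd1 fl1-2 fl2 fl3, labelled flΔ4. The wild-type libraries, WT_dark 4 to 6, are from the accession Col-0. Both groups were whole seedlings grown for 4 days on 1/2 MS medium in continuous darkness. How each allele was made is not given in the labels. Total RNA was extracted with TRIzol and sequenced with a stranded Illumina mRNA kit. The other dark wild-type libraries, WT_dark 1 to 3, served only as a second reference for direction. The dark-grown mutant cry2-1 (cry2_dark, 3 libraries), which lacks a blue-light receptor, was read for single genes only. The series also holds wild type and cry2-1 given 30 min of blue light at 30 µmol per square metre and second (WT_blue and cry2_blue, 3 libraries each), used here for single values only. The labels do not say which dark wild-type libraries belong to the mutant, and the numbering of the titles was used. Nor do they say whether libraries of a group came from separate sowings, so p-values measure the spread between these samples, which may be technical. Of 32833 genes listed, the 19411 whose mean over these 6 libraries reached 1 TPM were tested. TPM is the share of a gene in the transcripts of its library after division by gene length.

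FORKED1 (FKD1) and its relatives encode plant-specific proteins that act in the joining of leaf veins into a closed network. They work with vesicle traffic and with the localisation of auxin efflux carriers, which set the paths along which veins form. In darkness a seedling grows by cell elongation in the hypocotyl, keeps its cotyledons closed, and holds cell division at the shoot apex at a low rate. The comparison asks which transcripts differ when this small gene family is disrupted in that dark-grown state.

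Among the genes that differed were the precursors of a pair of microRNAs and a short, uncharacterised coding gene. Their sequences, from the RefSeq annotation of TAIR10.1, are shown because the first and the last were listed at 0 in all 3 wild-type libraries. The capitals in each miRNA mark the seed, bases 2 to 8 from the 5′ end, and the seeds differ. In the coding sequence of AT1G64795, which is 201 bases long and lies on chromosome 1 on the plus strand, the capitals mark the start and stop codons. The miR827 locus (AT3G59884) lies on chromosome 3 and the miR834 locus (AT5G08210) on chromosome 5, both on the minus strand.
miR827: uUAGAUGAccaucaacaaacu
miR834: uGGUAGCAguagcggugguaa
AT1G64795: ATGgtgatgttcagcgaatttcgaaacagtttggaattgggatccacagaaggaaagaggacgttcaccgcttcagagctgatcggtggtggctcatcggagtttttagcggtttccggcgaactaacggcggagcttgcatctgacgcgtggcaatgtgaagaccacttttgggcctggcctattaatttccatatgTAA

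The libraries were alike in total, with TPM summing to 997143 to 998252 and 18493 to 19436 genes at 1 TPM or more. TPM keep no read totals, so the depth is unknown. The library fl4_dark 3 stood apart from the other mutant libraries. On the first principal component, which held 47.5% of the variance, WT_dark 4, 5 and 6 lay at -17.94, -40.87 and -37.72, fl4_dark 1 and 2 at 57.84 and 48.57, and fl4_dark 3 at -9.89. Its correlations with the wild-type libraries across genes were 0.953 to 0.965, against 0.947 and 0.954 with fl4_dark 1 and 2. The summed TPM of ribosomal RNA loci also differed between the groups. It was 6550 to 7907 TPM in WT_dark 4 to 6 and 32552, 15784 and 11755 TPM in fl4_dark 1, 2 and 3, but 44232 to 50336 TPM in WT_dark 1 to 3, above every mutant library. Loci of the chloroplast and mitochondrial genomes summed to 2076 to 2801 TPM in WT_dark 4 to 6 and to 9906, 2872 and 3057 TPM in the mutant. With these loci left out and the rest rescaled, all 59 genes called below were still called. Most tested genes lay slightly lower in the mutant, with a median log2 difference of -0.12, and this median was -0.01 after quantile normalization.

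Of the 19411 genes tested, 43 were higher (0.222%) and 16 lower (0.0824%) in fl4_dark at an adjusted p under 0.05 (limma on log2(TPM + 1), 2-sided, Benjamini-Hochberg adjustment over all genes tested), which is 0.304% in either direction. In all 59 the 3 mutant libraries lay apart from the 3 wild-type libraries without overlap. Of the called genes, 35 rose and 16 fell by at least 2-fold on this scale. At an unadjusted p under 0.05 the order turned, with 1442 genes higher (7.43%) and 2602 lower (13.4%). Without overlap between the groups were 1853 genes on the higher side (9.55%) and 3017 on the lower (15.5%). The number of calls depended on single libraries. Without fl4_dark 3 it was 673 higher (3.48%) and 2267 lower (11.7%), and all 59 genes were among them. It was 165 and 166 without WT_dark 4. It was 14 and 5 without fl4_dark 1, 17 and 10 without fl4_dark 2, 18 and 8 without WT_dark 5, and 14 and 7 without WT_dark 6. Of the 59 genes, 57 were still called without WT_dark 4, 20 without fl4_dark 2, 19 without WT_dark 5, 16 without WT_dark 6 and 15 without fl4_dark 1. The 12 called in every such fit were AT1G64795, MIR827, AT5G25995, AT4G04223, AT4G26390, QQS, ALS3, HOL2 and AT1G52000 on the higher side and AT1G09533, AT5G33390 and AT1G06830 on the lower. In a fit of all 18 libraries that share 1 estimate of the spread, 912 genes were higher (4.7%) and 1933 lower (9.96%), and against all 6 dark wild-type libraries 117 (0.594%) and 130 (0.66%). In whole seedlings, fewer cells of a type and less RNA per cell cannot be told apart.

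**Figure D1:**
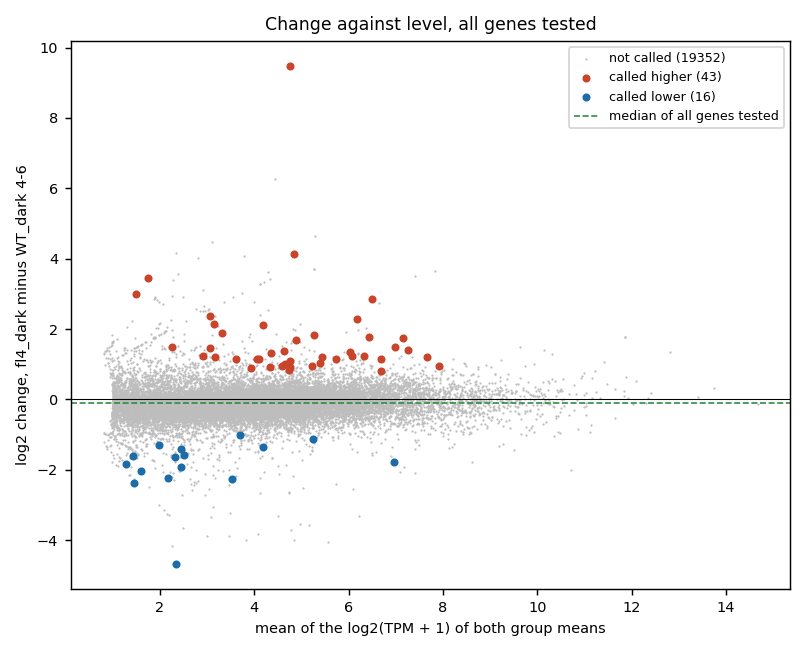
Difference between fl4_dark and WT_dark 4-6 (vertical axis, log2, 3 libraries each) against the mean level of each of the 19411 genes tested (horizontal axis, mean of log2(TPM + 1)). The 43 red points are called higher and the 16 blue points called lower, the grey points are not called, and the dashed line marks the median of all genes at -0.12.

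The targeted genes were read first as a check of the labels. FL1 (AT5G43870, chromosome 5) was the only one of the 4 called, at 2.81, 3.58 and 4.62 TPM in WT_dark 4 to 6 and 0.36, 0.13 and 0.37 TPM in fl4_dark 1 to 3. It fell by 1.85 on the log2 scale (SE 0.25, n = 3 and 3, adjusted p = 0.0378, limma). FKD1 (AT3G63300) was not called, with a difference of -0.48 and an adjusted p of 0.277. For FL2 and FL3 as well the groups overlapped, and a transcript that is still made does not show whether its protein is. The remaining measured relatives and vein-patterning partners were read from a list of 10 genes. AT5G47440, annotated with the same DUF828 domain, was at 3.47, 4.6 and 4.08 TPM in wild type and 1.91, 2.85 and 2.28 TPM in the mutant, with an adjusted p of 0.170. CVP2 and CVL1, phosphatases of phosphoinositides needed for the vein network, and SFC, an ARF GTPase-activating protein of vesicle traffic, were not called (adjusted p = 0.278, 0.254 and 0.433). FL1 kept its call without fl4_dark 3 or WT_dark 4 and lost it without fl4_dark 1, fl4_dark 2, WT_dark 5 or WT_dark 6, with differences of -1.98 to -1.70 over these fits.

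The genes with the smallest p on the higher side were listed at 0 in wild type. AT1G64795 was listed at 0 in WT_dark 4, 5 and 6 and at 755, 953 and 513 TPM in fl4_dark 1, 2 and 3 (adjusted p = 2.53e-07). It was listed at 0 in WT_dark 1 to 3 as well. Its locus overlaps ILA on the opposite strand, which was at 10.1 to 13.6 TPM in wild type and 14.3 to 14.8 TPM in the mutant (adjusted p = 0.424). The precursor locus MIR827 was listed at 0 in all 6 dark wild-type libraries and at 13.3, 10.8 and 6.96 TPM in the mutant (adjusted p = 0.00209). The microRNA made from it is known from phosphate starvation, where it acts on NLA, an E3 ubiquitin ligase that removes phosphate transporters. NLA itself, looked up after the precursor was seen, had means of 25.5 TPM in wild type and 30.6 TPM in the mutant (adjusted p = 0.621). The reads of the libraries report the precursor transcript and not the mature miRNA. AT5G25995, an uncharacterised gene, was listed at 0 in the 6 dark wild-type libraries and at 6.10, 6.52 and 8.39 TPM in the mutant (adjusted p = 0.00209). No fold change is given for these 3 genes because the wild type was listed at 0. They passed the filter of 1 TPM through the mutant libraries alone. Their wild-type values had no spread, so within each gene only the mutant libraries gave the spread behind the p-value. MIR834, by contrast, was expressed in both genotypes, at 75.1, 73.6 and 84.2 TPM in wild type and 128, 144 and 136 TPM in fl4_dark. It rose by 0.80 (SE 0.12, adjusted p = 0.0467).

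**Figure D2:**
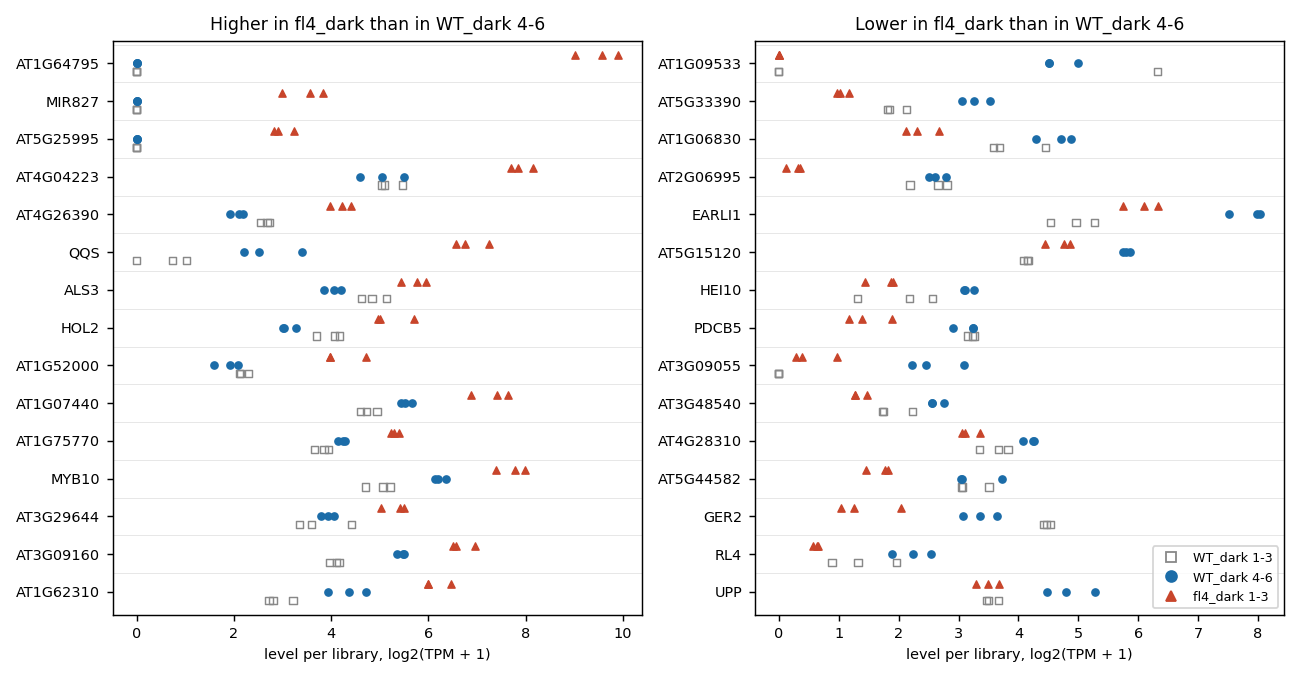
Levels of up to 15 called higher genes (left) and 15 called lower genes (right) as log2(TPM + 1) on the horizontal axis, one row per gene. Grey squares are WT_dark 1-3, blue circles WT_dark 4-6 and red triangles fl4_dark 1-3. In every row the red triangles lie apart from the blue circles, and for EARLI1 the grey squares lie on the far side of the triangles.

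A further set of transcripts rose from a low to a high level. QQS, an orphan gene known to alter the balance of starch and protein, was at 3.63, 9.60 and 4.72 TPM in wild type and 93.9, 151 and 106 TPM in the mutant. Its log2 increase was 4.14 (SE 0.32, adjusted p = 0.00671), and the lowest mutant library lay far above the highest wild-type library. The noncoding RNA AT4G04223 went from 22.9, 44.0 and 31.8 TPM to 284, 229 and 207 TPM, an increase of 2.86 (SE 0.23, adjusted p = 0.00387). AT1G52000, annotated as a mannose-binding lectin, went from 1.99, 2.76 and 3.22 TPM to 14.8, 14.8 and 25.3 TPM (2.37, SE 0.25, adjusted p = 0.00912). The jmjC-domain gene AT1G62310 was at 25.2, 14.2 and 19.5 TPM in wild type and at 62.9, 87.7 and 62.2 TPM in the mutant (1.82, SE 0.22, adjusted p = 0.0224). Its class of proteins removes methyl groups from histones. AT5G27890, an uncharacterised gene, went from 37.5, 27.6 and 28.1 TPM to 174, 222 and 95.8 TPM, and fl4_dark 3 was the lowest of the mutant libraries.

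Several further higher genes are annotated as enzymes or transporters. AT4G26390, annotated as a pyruvate kinase, the enzyme of the last step of glycolysis, was at 3.3, 3.55 and 2.77 TPM in wild type. It reached 14.7, 17.8 and 20.4 TPM in the mutant, an increase of 2.14 (SE 0.18, adjusted p = 0.00387). Its opposite-strand neighbour AT4G26400 was at 58.5 to 76.1 TPM in wild type and 92.4 to 106 TPM in the mutant (0.52, adjusted p = 0.118). ATSPS4F, a sucrose-phosphate synthase, was at 10.04, 11.9 and 13.9 TPM and then 26.5, 33.9 and 34.2 TPM (1.33, SE 0.17, adjusted p = 0.0239). GPT2, which carries glucose 6-phosphate across the plastid envelope, was at 4.89, 4.50 and 5.34 TPM and then 12.8, 14.97 and 10.2 TPM (1.2, SE 0.18, adjusted p = 0.0465). Neither gene had mutant and wild-type libraries that overlapped. ALS3, an ABC transporter-like protein of aluminium tolerance, was at 17.3, 13.5 and 15.6 TPM in wild type and 53.4, 61.0 and 42.4 TPM in the mutant (1.68, SE 0.17, adjusted p = 0.00738). HOL2, annotated as a methyltransferase, was at 7.20, 8.75 and 7.04 TPM and then 30.1, 50.8 and 31.3 TPM (2.11, SE 0.21, adjusted p = 0.00738). SULTR3;5 of the sulfate transporter family, the calcium exchanger gene CAX7, the purine permease gene ATPUP13 and the cellulase gene CEL2 also rose, by 0.88 to 1.16 on the log2 scale. These 4, and the other called genes named without ranking among the first 15 of their direction, were chosen after their values were seen.

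The iron, phosphate and abscisic acid lists each held 1 or 2 called genes, all of them higher. Of all genes tested, 0.222% were called higher. The lists were chosen with earlier results of these data known. MYB10, a transcription factor of the iron-deficiency response, was at 72.6, 81.0 and 69.6 TPM in wild type and 217, 252 and 167 TPM in the mutant (1.48, SE 0.17, adjusted p = 0.0144). It was the only one of the 18 iron-deficiency genes tested to be called. FRO3, a mitochondrial ferric reductase, came next with 54.4, 50.2 and 53.4 TPM against 91.7, 134 and 97.3 TPM, at an adjusted p of 0.0526. The list's median difference was -0.30, against -0.12 for all genes. Of 22 phosphate-starvation genes, 2 rose. AT5G03545, annotated as expressed in response to phosphate starvation, was at 61.7, 69.1 and 99.9 TPM in wild type and 244, 198 and 338 TPM in the mutant (1.74, SE 0.24, adjusted p = 0.0426). G3Pp1, a putative glycerol-3-phosphate transporter, was at 18.4 to 18.9 TPM in wild type and 34.5, 32.5 and 41.3 TPM in the mutant (0.91, SE 0.13, adjusted p = 0.0451). The median of that list was -0.19. The phosphate uptake carrier PHT1;1 was at 43.4, 32.5 and 37.4 TPM in wild type and 24.5, 15.6 and 30.6 TPM in the mutant (adjusted p = 0.161). LTI65, a classic target of abscisic acid, was at 6.04, 2.51 and 4.15 TPM and then 22.8, 14.96 and 15.8 TPM (1.88, SE 0.27, adjusted p = 0.0445). It was the only abscisic acid gene called of 19, and the list's median was 0.27, with 14 members above 0. ABF3, a bZIP factor that acts in the same pathway, was at 161, 144 and 161 TPM and then 220.4, 282 and 262 TPM, with an adjusted p of 0.0788.

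The 16 lower genes included noncoding RNAs, secreted proteins and enzymes. AT1G09533, annotated as a noncoding RNA, was listed at 0 in the 3 mutant libraries and at 21.8, 21.7 and 31.0 TPM in WT_dark 4 to 6 (adjusted p = 4.91e-05). It passed the filter through WT_dark 4 to 6 alone, and its mutant values had no spread. In WT_dark 1 to 3 it was listed at 0, 0 and 79.1 TPM, so wild-type libraries without it exist as well. AT1G06830, a glutaredoxin, was at 18.6, 28.5 and 25.2 TPM in wild type and 3.33, 3.97 and 5.41 TPM in the mutant, and fell by 2.26 (SE 0.21, adjusted p = 0.00634). AT5G33390, annotated as a glycine-rich protein, was at 10.5, 7.31 and 8.60 TPM and then 0.95, 1.04 and 1.25 TPM (fell by 2.23, SE 0.21, adjusted p = 0.00634). The noncoding RNA AT2G06995 was at 4.65, 5.12 and 5.91 TPM and then 0.28, 0.25 and 0.08 TPM (adjusted p = 0.00634). These low mutant levels make the fold change on this scale an understatement. EARLI1, a hybrid proline-rich protein of the cell wall, was at 262, 251 and 182 TPM in WT_dark 4 to 6 and 67.1, 52.9 and 79.0 TPM in the mutant (fell by 1.79, SE 0.19, adjusted p = 0.0114). GER2, a germin-like protein of the wall space, was at 7.40, 11.5 and 9.31 TPM and then 1.05, 1.38 and 3.12 TPM (fell by 1.92, SE 0.29, adjusted p = 0.0451). PDCB5, which belongs to the proteins that bind callose at plasmodesmata, was at 8.45, 8.48 and 6.46 TPM and then 1.26, 1.63 and 2.69 TPM (fell by 1.64, SE 0.24, adjusted p = 0.0445). In all of these the highest mutant library lay below the lowest of WT_dark 4 to 6.

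The remaining lower genes have varied annotations. UPP, a uracil phosphoribosyltransferase that salvages uracil, was at 21.3, 37.8 and 26.8 TPM in wild type and 8.83, 11.8 and 10.3 TPM in the mutant (fell by 1.36, SE 0.21, adjusted p = 0.0485). AT3G48540, annotated as a cytidine or deoxycytidylate deaminase, was at 5.75, 4.91 and 4.91 TPM and then 1.41, 1.76 and 1.4 TPM (fell by 1.29, SE 0.20, adjusted p = 0.0451). AT4G28310, annotated as microtubule-associated, was at 18.02, 18.2 and 15.8 TPM and then 7.32, 7.61 and 9.30 TPM (fell by 1.02, SE 0.15, adjusted p = 0.0451). AT5G15120, annotated as a 2-aminoethanethiol dioxygenase, was at 52.4, 57.2 and 54.6 TPM and then 20.8, 28.0 and 26.0 TPM (fell by 1.12, SE 0.14, adjusted p = 0.0263). HEI10, known from meiotic crossovers, was at 8.58, 7.66 and 7.55 TPM and then 2.67, 2.76 and 1.70 TPM (fell by 1.42, adjusted p = 0.0431). MRD1, which overlaps HEI10 on the opposite strand, was at 28.2, 25.5 and 18.6 TPM in wild type and 2.63, 3.01 and 0 TPM in the mutant (adjusted p = 0.0760). The reads of such pairs are separated only if counting used the strand, which is not given in the sources used here. Of the 59 called genes, 22 overlap another annotated locus and 18 of these overlap one on the opposite strand. RL4, a RAD-like MYB gene, and the uncharacterised AT3G09055 and AT5G44582 complete the lower genes, with decreases of 1.59 to 2.04. AT3G09055 was at 7.47, 3.66 and 4.48 TPM in WT_dark 4 to 6 and 0.96, 0.22 and 0.30 TPM in the mutant. It passed the filter through WT_dark 4 to 6 alone and was listed at 0 in WT_dark 1 to 3, below the mutant. Against WT_dark 1 to 3, AT5G44582 was called lower and RL4 was not called (-0.77, adjusted p = 0.0561).

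The second reference, WT_dark 1 to 3, shares the mutant libraries with the first and so is no independent test. Against it 4797 of 19686 genes were called higher (24.4%) and 4993 lower (25.4%), and the wild-type sets themselves differed in 50.8% of genes. Of the 58 called genes that could be tested, 46 were called in the same direction (39 higher, 7 lower), 10 were not called and 2 were called in the opposite direction. EARLI1 was at 37.7, 30.1 and 22.2 TPM in WT_dark 1 to 3, so the mutant lay higher there by 1.13 (adjusted p = 0.00241). AT5G15120 was at 15.9 to 16.9 TPM there, and the mutant lay higher by 0.56 (adjusted p = 0.0105). Every called gene already lay apart from WT_dark 4 to 6, and the calls used the same mutant libraries. Levels of 48 of the called genes did not overlap between fl4_dark and all 6 dark wild-type libraries (39 higher, 9 lower). The share of all genes that did so was not counted. QQS was among these 48, at 0, 1.04 and 0.66 TPM in WT_dark 1 to 3. So was GER2, at 20.3, 22.1 and 21.1 TPM there, a larger distance from the mutant than in WT_dark 4 to 6. UPP, HEI10, SIS, CXE12 and AT2G15830 were among the genes not called against WT_dark 1 to 3, with differences of -0.06, -0.28, 0.39, 0.31 and 0.31.

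**Figure D3:**
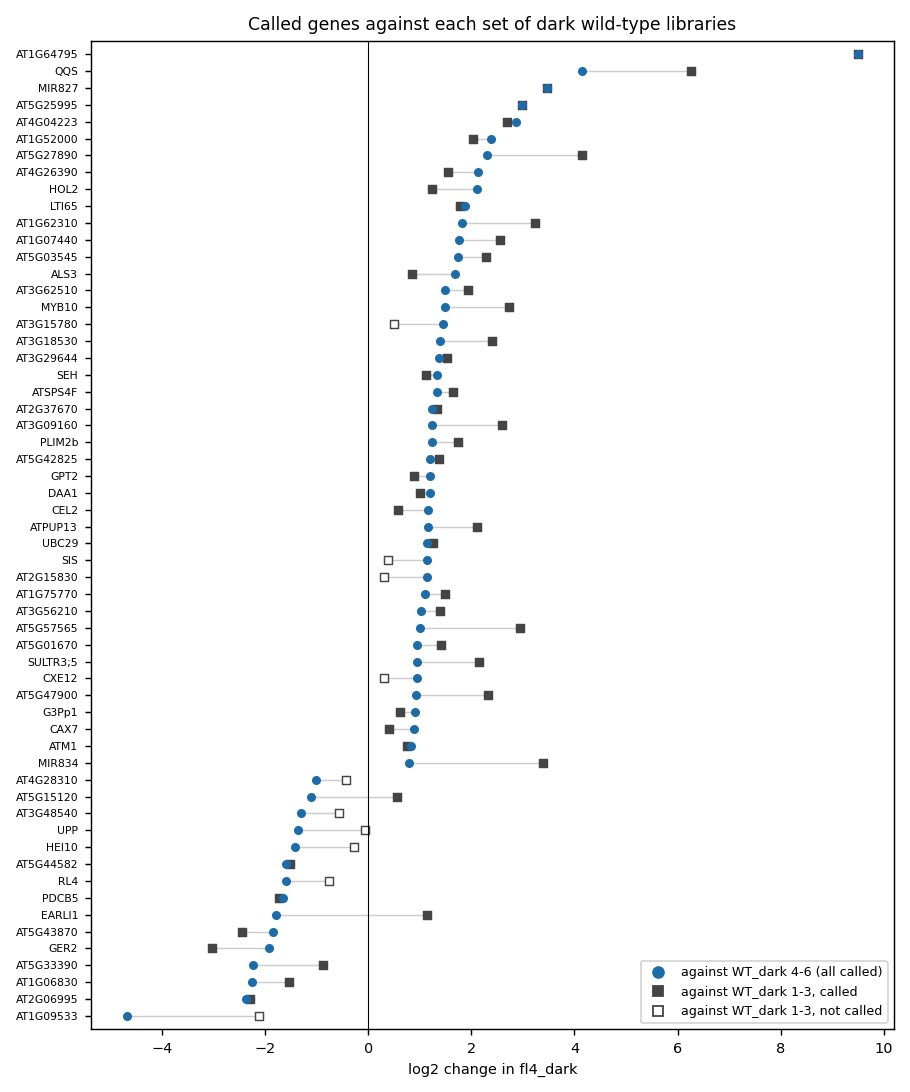
Log2 difference of fl4_dark for the 58 called genes tested against both dark wild-type sets, one row per gene. Blue circles are against WT_dark 4-6 and dark squares against WT_dark 1-3, filled where called and open where not. EARLI1 and AT5G15120 are the genes whose filled squares lie on the other side of 0.

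The other dark-grown mutant of the series, cry2, was read for the same genes after the results were seen, against WT_dark 1 to 3. In that comparison 17.4% of genes were called higher and 5.86% lower. Of the 59 genes called in fl4_dark, 6 were not tested there. These were AT1G64795, MIR827, AT5G25995, QQS and AT3G62510 on the higher side and AT3G09055 on the lower. Of the 43 genes higher in fl4_dark, 4 were called higher and 10 lower in cry2_dark. AT5G03545, at 134, 245 and 209 TPM in cry2_dark, and G3Pp1, at 33.3, 41.3 and 41.1 TPM, were among the 4. Of the 16 lower genes, 7 were called higher and 1 lower in cry2_dark. EARLI1 was at 151, 193 and 172 TPM in cry2_dark, above WT_dark 1 to 3 and above the fl4_dark libraries. The test of a difference between the mutants was not made, because their wild-type sets differ.

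Genes of DNA replication lay lower together, although none was called at the level of single genes. All 35 tested S-phase genes had a difference below 0, and their median was -0.80, against -0.12 for all genes. At an unadjusted p under 0.05, 26 of them were lower (74.3%, against 13.4% of all genes), and in 24 the groups did not overlap (15.5% of all genes). CYCA3;2, an A-type cyclin of S phase, was at 17.96, 24.3 and 19.6 TPM in wild type and 7.08, 7.93 and 12.2 TPM in the mutant (-1.12, SE 0.21, adjusted p = 0.0724). TSO2, a small subunit of ribonucleotide reductase, the enzyme that makes deoxynucleotides, was at 39.9, 44.97 and 33.4 TPM and then 19.9, 18.8 and 25.3 TPM (-0.86, SE 0.16, adjusted p = 0.0736). Its large subunit RNR1, chosen after its values were seen like the further members named below, was at 20.2, 24.3 and 21.1 TPM and then 9.24, 8.10 and 14.2 TPM (-1.02, adjusted p = 0.0787). PCNA1, the sliding clamp of DNA polymerase, was at 16.2, 18.1 and 14.98 TPM and then 7.31, 5.79 and 11.1 TPM (-0.98, adjusted p = 0.0891). MCM5, a subunit of the replicative helicase, was at 9.45, 14.0 and 11.2 TPM and then 4.71, 4.05 and 6.76 TPM (-1.03, adjusted p = 0.0822). In each of these 5 genes fl4_dark 3 was the highest mutant library and still lay below the lowest wild-type library.

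Whether S-phase genes were called depended on fl4_dark 3 and on the fit. Without fl4_dark 3, 28 of the 35 genes were called lower, where 11.7% of all genes were. Without any 1 of the other libraries, 0 were called lower. The number was also 0 with each other pseudocount, filter, scaling and moderation tried. In the fit of all 18 libraries 25 were called lower, where 9.96% of all genes were. CYCA3;2 then fell by 1.34 (adjusted p = 0.0171), RNR1 by 1.24 (adjusted p = 0.0137) and PCNA1 by 1.21 (adjusted p = 0.0195). The number at an unadjusted p under 0.05 was 19 to 31 over the 6 fits that left out 1 library, and the list median was -0.80 to -0.64 over the scalings tried. Per library, the median S-phase deviation from the WT_dark 4 to 6 mean was -0.10, 0.16 and -0.05 in WT_dark 4 to 6 and -1.02, -0.97 and -0.38 in fl4_dark 1 to 3. On this measure WT_dark 1 to 3 lay at -0.39, -0.43 and -0.13, and fl4_dark 3 lay within their range. Against WT_dark 1 to 3, 12 of the 35 were called lower and 2 higher, where 25.4% of all genes were called lower and 24.4% higher, and the median was -0.32. There CYCA3;2 differed by -0.15 and MCM5 by -0.07, neither of them called, and ORC6, a subunit of the origin recognition complex, was called higher by 0.65 (adjusted p = 0.0449).

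**Figure D4:**
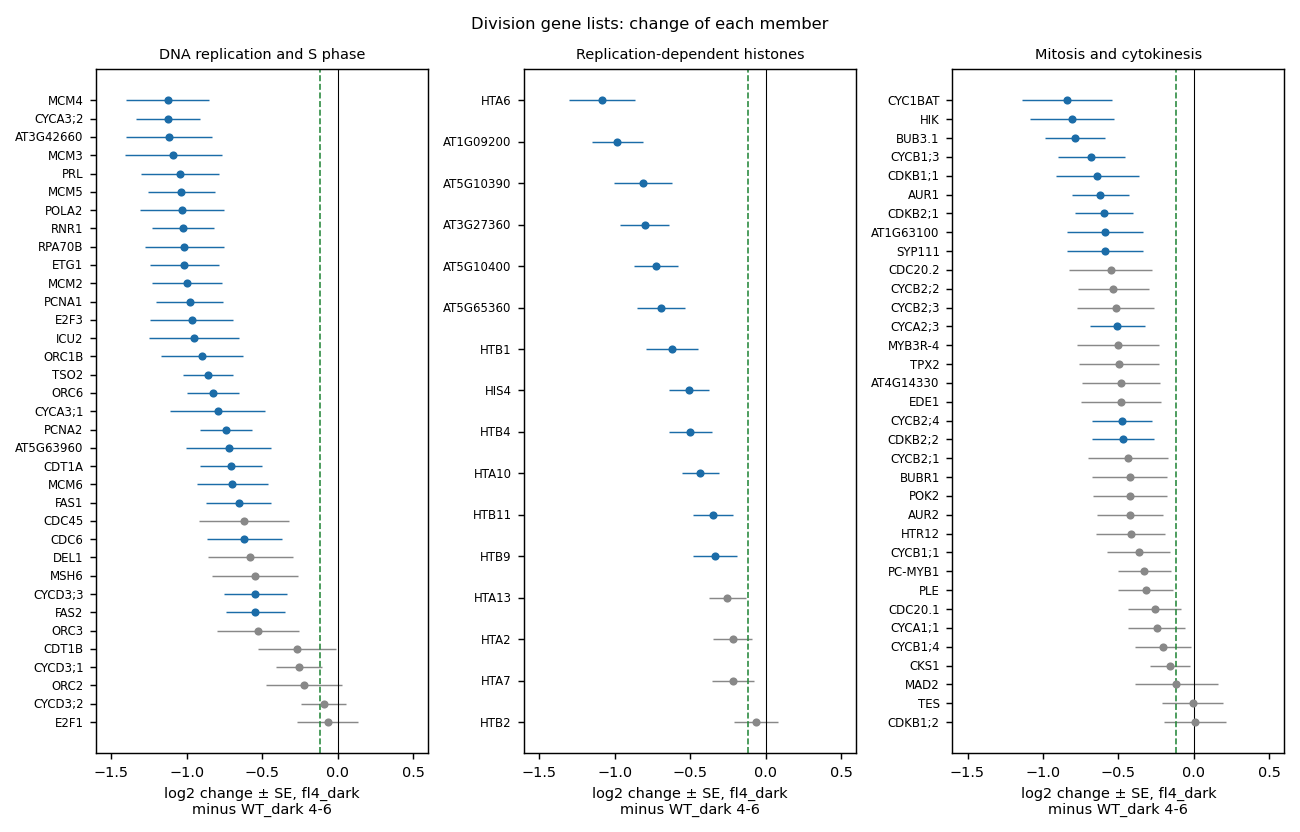
Log2 difference between fl4_dark and WT_dark 4-6, with its standard error, for each tested gene of the S-phase (35), histone (16) and mitosis (34) lists. Blue marks an unadjusted p under 0.05 and the dashed green line the median of all genes, -0.12. All S-phase and histone genes and 33 of the 34 mitosis genes lie below 0.

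Histone genes that are expressed during replication lay lower with them. All 16 were below 0, with a median of -0.50. At an unadjusted p under 0.05, 12 of them were lower (75%, against 13.4% of all genes). In 13 the groups did not overlap, all on the lower side (15.5% of all genes). AT1G09200, which encodes histone H3, was at 133, 167 and 113 TPM in wild type and 60.1, 70.8 and 74.7 TPM in the mutant (-0.98, SE 0.17, adjusted p = 0.0620). The further H3 gene AT5G10400 was at 67.8, 72.1 and 60.0 TPM and then 35.1, 38.4 and 46.7 TPM (-0.73, adjusted p = 0.0788). The H3 genes are nearly identical copies, so reads may have been split among them. HTA6, a histone H2A, was at 112, 139 and 107 TPM and then 50.9, 42.8 and 77.9 TPM (-1.08, adjusted p = 0.0788). Here the picture was similar against the second reference, where 12 were called lower and 2 higher (25.4% and 24.4% of all genes) and the median was -0.54. Without fl4_dark 3, 10 of the 16 were called lower (11.7% of all genes).

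Genes of mitosis and cytokinesis followed with smaller differences. Of 34 tested, 33 lay below 0, with a median of -0.48, and none was called. At an unadjusted p under 0.05, 12 were lower (35.3%, against 13.4% of all genes). That number was 24 without fl4_dark 3, 4 without fl4_dark 1, fl4_dark 2 or WT_dark 5, 5 without WT_dark 4 and 6 without WT_dark 6. The share of all genes moved as well, from 13.4% to 28.2% without fl4_dark 3, 12.6% without WT_dark 4 and 6.81% to 7.91% without any 1 of the other libraries, and the counts for lists below are to be read against these shares. BUB3.1, of the spindle checkpoint, was at 7.68, 8.69 and 5.58 TPM in wild type and 3.93, 3.53 and 3.81 TPM in the mutant (-0.79, SE 0.20, adjusted p = 0.108). AUR1, an Aurora kinase, was at 6.60, 8.10 and 6.48 TPM and then 4.42, 3.53 and 4.79 TPM (-0.62, SE 0.19, adjusted p = 0.137). CDKB2;1, a mitotic cyclin-dependent kinase, was at 22.04, 18.6 and 16.6 TPM and then 10.5, 10.8 and 15.9 TPM (adjusted p = 0.151). Among the 14 genes of CDK inhibitors and the endocycle, which restrain the cycle, none was called. At an unadjusted p under 0.05, 3 were higher and 1 lower (7.43% and 13.4% of all genes). The list median was -0.02, with 7 members above 0 and 7 below. AT2G32710, a cyclin-dependent kinase inhibitor, was at 19.4, 17.3 and 19.1 TPM and then 26.3, 28.8 and 28.6 TPM (0.56, adjusted p = 0.0880). ICK1 was at 24.2, 14.7 and 21.7 TPM and then 35.5, 35.0 and 26.5 TPM (0.67, adjusted p = 0.137). The 14 genes of ribosome biogenesis, a further mark of growing cells, had a median of -0.07 and none at an unadjusted p under 0.05. Markers of meristem tissue gave these values: the 22 root meristem regulators summed to 111 to 126 TPM in wild type and 83.7 to 115 TPM in the mutant, none was listed at 0 in all 6 libraries, and 1 of 12 tested was lower at an unadjusted p under 0.05. Whether the number of dividing cells contributed was not tested.

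**Figure D5:**
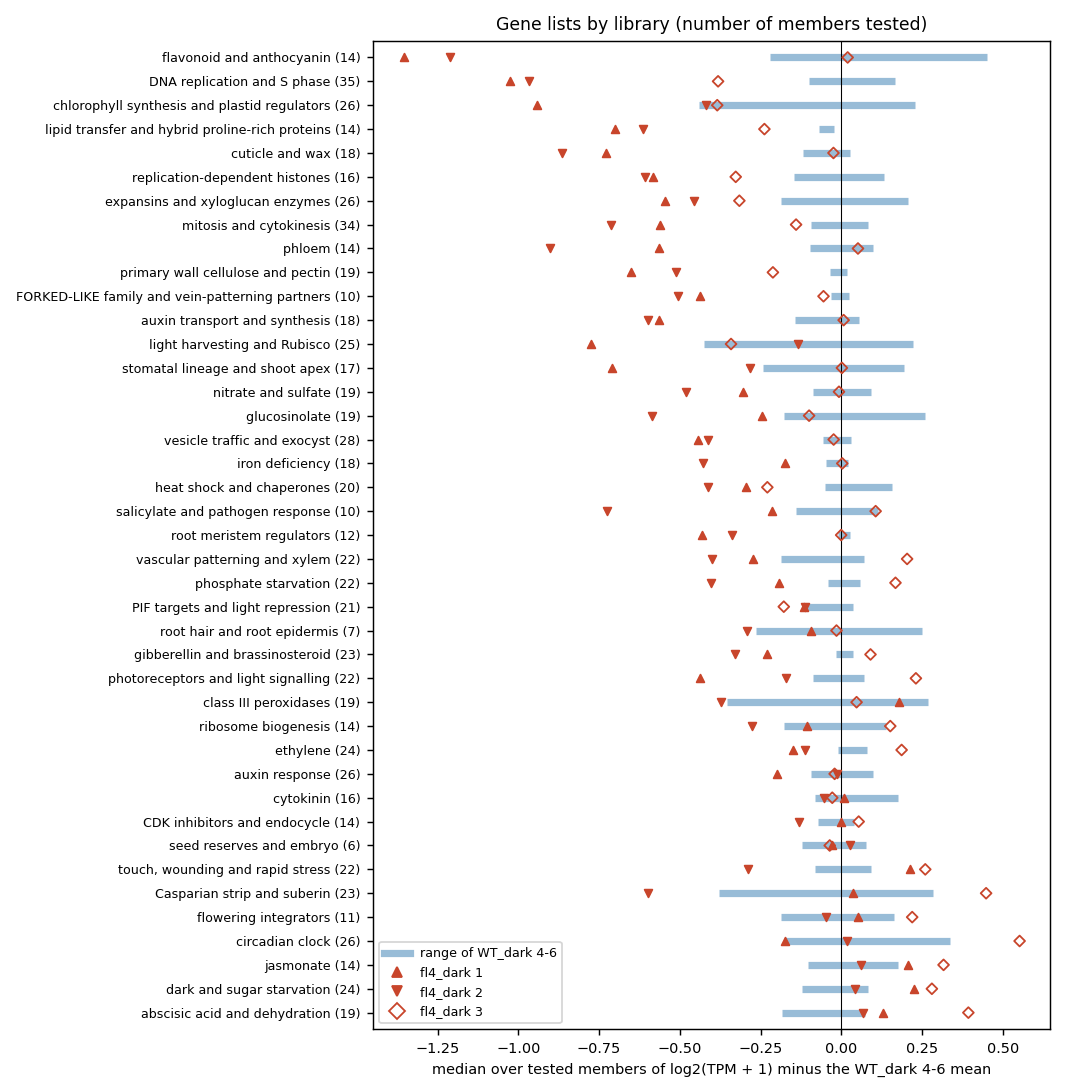
Median deviation of each of 41 gene lists from the wild-type mean, on the log2(TPM + 1) scale (horizontal axis), one row per list. The blue bar spans WT_dark 4-6, the red triangles are fl4_dark 1 (up) and 2 (down), and the open diamond is fl4_dark 3. For S phase the mutant libraries lie at -1.02, -0.97 and -0.38, and for flavonoids at -1.35, -1.21 and 0.02.

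Genes of wall growth also lay on the lower side. All 19 primary-wall genes were below 0, with a median of -0.45, and 11 were lower at an unadjusted p under 0.05 (5 to 12 when 1 library was left out, 5 without fl4_dark 1 or WT_dark 5 and 6 without fl4_dark 2 or WT_dark 6). FLA8, a fasciclin-like arabinogalactan protein, was at 95.6, 131 and 120.0 TPM in wild type and 68.8, 74.6 and 75.6 TPM in the mutant (-0.64, SE 0.15, adjusted p = 0.0914). THE1, a receptor kinase that senses the state of the wall, was at 20.3, 25.0 and 22.7 TPM and then 12.2, 14.2 and 16.7 TPM (-0.63, SE 0.16, adjusted p = 0.106). Of 26 expansin and xyloglucan-enzyme genes, 11 were lower at an unadjusted p under 0.05, with a median of -0.50. That number was 4 without WT_dark 6 and 6 without fl4_dark 1. XTH4, which cuts and rejoins xyloglucan, was at 407, 589 and 469 TPM and then 239.8, 293 and 294 TPM (-0.81, SE 0.17, adjusted p = 0.0827). EXLA2, an expansin-like gene, was at 32.3, 42.7 and 31.6 TPM and then 20.5, 25.4 and 25.6 TPM (-0.55, adjusted p = 0.132). Both wall lists lay lower against WT_dark 1 to 3 too, with 17 of 19 and 19 of 26 genes called lower and medians of -1.13 and -1.10, where 25.4% of all genes were called lower. WT_dark 1 to 3 themselves lay above the WT_dark 4 to 6 mean, so these differences include one between the wild-type sets. Their median deviations were 0.66, 0.60 and 0.75 for primary-wall genes and 0.58, 0.68 and 0.63 for expansin and xyloglucan-enzyme genes.

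Auxin transport and vesicle traffic, the processes in which FORKED-LIKE proteins are known to act, gave no called gene. Of 18 genes of auxin transport and synthesis, 7 were lower at an unadjusted p under 0.05 (13.4% of all genes), with a median of -0.36 against -0.12 for all genes. The number was 3 without fl4_dark 1 or fl4_dark 2 and 9 without fl4_dark 3. TAA1, which makes the precursor of auxin from tryptophan, was at 16.6, 18.9 and 19.4 TPM in wild type and 6.05, 8.14 and 13.5 TPM in the mutant (-0.98, SE 0.25, adjusted p = 0.108). LAX3, an auxin influx carrier, was at 40.4, 39.9 and 39.0 TPM and then 25.7, 25.8 and 33.9 TPM (-0.48, SE 0.14, adjusted p = 0.133). PIN7, an efflux carrier, was at 33.6, 42.3 and 41.6 TPM and then 21.2, 21.0 and 34.7 TPM (-0.62, adjusted p = 0.154). Among 28 genes of vesicle traffic and the exocyst, 8 were lower at an unadjusted p under 0.05, with a median of -0.30, and the number was 20 without fl4_dark 3, 4 without fl4_dark 2 or WT_dark 6 and 3 without fl4_dark 1 or WT_dark 5. AT5G46630, a medium subunit of the clathrin adaptor, was at 47.3, 49.9 and 47.0 TPM and then 31.3, 26.7 and 38.4 TPM (-0.58, SE 0.15, adjusted p = 0.111). RAB11c, a small GTPase of recycling vesicles, was at 26.0, 32.7 and 27.3 TPM and then 15.2, 15.9 and 22.2 TPM (-0.67, SE 0.17, adjusted p = 0.111). Without fl4_dark 3, 8 of the 18 auxin and 12 of the 28 vesicle genes were called lower, where 11.7% of all genes were. Auxin response genes stood nearer to all genes, with a median of -0.06 over 26 genes, 3 of them lower at an unadjusted p under 0.05 (5 without fl4_dark 3, and 1 without fl4_dark 1 or WT_dark 5).

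In the vascular lists no gene was called. Phloem genes had a median of -0.46, and 4 of 14 were lower at an unadjusted p under 0.05 (10 without fl4_dark 3, 2 without WT_dark 4, 1 without fl4_dark 2, WT_dark 5 or WT_dark 6 and 0 without fl4_dark 1). SEOR1, a structural protein of sieve elements, was at 18.4, 17.0 and 20.2 TPM in wild type and 7.18, 5.03 and 15.8 TPM in the mutant (-1.05, adjusted p = 0.163). SUC2, the sucrose loader of companion cells and chosen after its values were seen, was at 29.7, 55.3 and 56.3 TPM and then 9.02, 11.97 and 35.01 TPM (-1.47, adjusted p = 0.217). In SUC2, fl4_dark 3 lay within the wild-type range. The 16 phloem genes listed summed to 381 to 462 TPM in wild type and 258 to 457 TPM in the mutant. The 22 tested genes of vascular patterning and xylem had a median of -0.22 with 2 lower at an unadjusted p under 0.05. That number was 10 without fl4_dark 3, 3 without WT_dark 5 and 0 without any 1 of the other 4 libraries, where the share of all genes was 28.2%, 6.9% and 6.81% to 12.6%. CESA4, a cellulose synthase of secondary walls, was at 6.57, 5.22 and 6.34 TPM and then 2.97, 2.21 and 5.56 TPM (adjusted p = 0.211). Of the 26 vascular genes listed, DOT5 was at 0 in all 6 libraries.

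Epidermal programmes differed between the mutant libraries. Of 18 cuticle and wax genes, 8 were lower at an unadjusted p under 0.05. The number lower at that threshold was 13 without fl4_dark 3, 2 without WT_dark 5, 1 without WT_dark 6 and 0 without fl4_dark 1 or fl4_dark 2. The groups did not overlap in 1 gene on the lower side and 1 on the higher, against 15.5% and 9.55% of all genes. ABCG11, a lipid exporter of the cuticle, was at 56.6, 56.5 and 56.0 TPM in wild type and 34.1, 32.2 and 51.7 TPM in the mutant (-0.54, SE 0.18, adjusted p = 0.158). LACS1, which activates fatty acids for wax and cutin, was at 14.4, 24.0 and 25.3 TPM and then 4.29, 5.08 and 15.4 TPM (-1.42, adjusted p = 0.172). Stomatal lineage genes were low in level. SPCH, which starts the lineage, was at 2.17, 5.42 and 4.11 TPM and then 0.13, 0.20 and 1.83 TPM (-1.59, SE 0.41, adjusted p = 0.112). TMM, a receptor-like protein that spaces stomata, was at 4.18, 9.12 and 8.57 TPM and then 1.32, 1.02 and 3.82 TPM (-1.49, SE 0.39, adjusted p = 0.116). Of the 17 stomatal and shoot apex genes tested, 6 were lower and 3 higher at an unadjusted p under 0.05, and 3 were lower without WT_dark 5. The whole list of 24 summed to 327 to 352 TPM in wild type and 314 to 385 TPM in the mutant.

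Flavonoid genes differed among the mutant libraries. Their median deviation was -1.35 and -1.21 in fl4_dark 1 and 2 but 0.02 in fl4_dark 3, and -0.20, -0.22 and 0.45 in WT_dark 4 to 6. Of 14 tested, 5 were lower at an unadjusted p under 0.05, with 11 without fl4_dark 3, 1 without fl4_dark 1 or WT_dark 6 and 0 without fl4_dark 2. FLS1, flavonol synthase, was at 17.0, 17.4 and 29.5 TPM in wild type and 1.16, 1.59 and 10.5 TPM in the mutant (-2.43, SE 0.69, adjusted p = 0.151). 4CL3, which feeds the pathway with activated coumarate, was at 3.57, 3.33 and 6.72 TPM and then 0.43, 0.96 and 3.67 TPM (-1.18, adjusted p = 0.198). For 4CL3 the library fl4_dark 3 lay within the wild-type range.

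In list levels per library, genes of the plastid overlapped between the groups, though most members lay below 0. The median log2 deviation of the chlorophyll list's genes from their mean in WT_dark 4 to 6 was -0.44, 0.23 and 0.18 in WT_dark 4 to 6 and -0.94, -0.42 and -0.38 in fl4_dark 1 to 3. The light-harvesting and Rubisco list summed to 59918 to 79902 TPM in wild type and 59273 to 79020 TPM in the mutant. Of 26 genes of chlorophyll synthesis and plastid regulation, 24 lay below 0, with a median of -0.58. At an unadjusted p under 0.05, 12 were lower (46.2%, against 13.4% of all genes), and 8 to 15 when 1 library was left out. PCB2, a reductase late in chlorophyll synthesis, was at 45.4, 66.1 and 60.1 TPM in wild type and 21.5, 30.0 and 32.4 TPM in the mutant (-1.01, SE 0.20, adjusted p = 0.0759). CHLI1, a subunit of magnesium chelatase, was at 243, 407 and 380.5 TPM and then 142, 205 and 191 TPM (-0.92, SE 0.23, adjusted p = 0.106). Against WT_dark 1 to 3 the median of this list was 0.23, with 10 called higher and 1 lower (24.4% and 25.4% of all genes). For 25 light-harvesting and Rubisco genes the medians were -0.34 against WT_dark 4 to 6 and 0.59 against WT_dark 1 to 3. LHB1B1, an antenna protein of photosystem II, was at 682, 592 and 853 TPM and then 125, 246 and 271 TPM (-1.78, SE 0.30, adjusted p = 0.0626). Its near-identical neighbour LHB1B2 was listed at 0 in WT_dark 4 to 6 and fl4_dark 3 but at 533 and 873 TPM in fl4_dark 1 and 2, so reads of the pair may have been shared.

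No gene of the clock list or of the dark and sugar starvation list was called. Of 26 clock genes, 5 were higher at an unadjusted p under 0.05 (7.43% of all genes were), and the list median was 0.07. ELF3, of the evening complex, was at 92.5, 67.6 and 91.9 TPM in wild type and 139.9, 172 and 135 TPM in the mutant (0.83, SE 0.17, adjusted p = 0.0788). COR27, a cold- and light-regulated repressor of clock genes, was at 25.5, 23.2 and 17.4 TPM and then 37.4, 54.2 and 35.2 TPM (0.90, SE 0.20, adjusted p = 0.0893). Of 24 genes of darkness and sugar starvation, 5 were higher at an unadjusted p under 0.05, with a list median of 0.14. In 7 the groups did not overlap, all on the higher side, where 9.55% of all genes lay without overlap. DYL1, a dormancy-associated gene, was at 1661, 1618 and 1396 TPM and then 2448, 2871 and 2510.2 TPM (0.74, SE 0.16, adjusted p = 0.0855). IVD, which breaks down branched-chain amino acids in mitochondria, was at 134, 125 and 116 TPM and then 207, 189 and 171 TPM (0.59, SE 0.13, adjusted p = 0.0914). Against WT_dark 1 to 3 DYL1 differed by -0.11 and IVD by 0.11, and neither was called. Some regulators lay higher within lists whose medians were below 0, at -0.07 for ethylene, -0.18 for PIF targets and -0.15 for photoreceptors and light signalling. HLS1, needed for the apical hook of dark-grown seedlings, was at 15.4, 10.4 and 14.5 TPM and then 26.8, 32.2 and 21.8 TPM (0.95, SE 0.19, adjusted p = 0.0788). PIF3, a factor that maintains growth in darkness, was at 48.4, 52.4 and 52.4 TPM and then 68.9, 90.9 and 89.9 TPM (0.68, SE 0.14, adjusted p = 0.0802). HY5, its counterpart in light responses, was at 125, 103 and 138 TPM and then 158, 223 and 195 TPM (0.65, SE 0.17, adjusted p = 0.114). In ELF3, DYL1, IVD, HLS1, PIF3 and HY5 every mutant library lay above all of WT_dark 4 to 6, as in 9.55% of all genes. ELF3, PIF3 and HY5 lay above WT_dark 1 to 3 as well. There DYL1 was at 2753, 3313 and 2417 TPM, IVD at 159, 195 and 169 TPM and HLS1 at 20.2, 25.3 and 25.9 TPM. These 3 overlapped the mutant.

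None of the rRNA loci was called. AT2G01020 and AT3G41979, annotated as ribosomal RNAs, had identical values, as copies that share reads can have. They were at 2436, 1918 and 1479 TPM in WT_dark 4 to 6 and 11002, 6248 and 3978 TPM in fl4_dark 1 to 3 (1.77, SE 0.37, adjusted p = 0.0855). The 18S locus AT3G41768 was at 3034, 2714 and 4740 TPM and then 9343, 3288 and 3799 TPM (adjusted p = 0.491). Ribosomal RNAs mostly lack poly(A) tails. With the rRNA and organelle loci left out and the TPM rescaled, 54 genes were called higher and 19 lower.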

How the data were processed

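For each library the authors deposited a table of TPM, covering 32833 genes. Per the submitters' processing notes, fastp, HISAT2 and StringTie were used with the build TAIR10. Versions, settings and the use of strand by these tools are not stated there. Read totals cannot be recovered from TPM, so the depth is unknown and no counting interval can be given. The spread of 3 libraries per group set the precision. TPM are shares, so a change in abundant RNAs moves all others. Names were taken from RefSeq (TAIR10.1) by locus. Of the loci, 32548 matched and 285 loci of the chloroplast and mitochondrial genomes did not. Because the builds differ in name, no coordinates are printed. FL1, FL2 and FL3 were matched to AT5G43870, AT3G22810 and AT4G14740 from general knowledge.

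The log2(TPM + 1) values of the 6 libraries were fitted with limma 3.58.1 under R 4.3.3 (labels read with jsonlite 2.0.0), using a mean-variance trend and robust moderation, where a gene's mean reached 1 TPM. An adjusted p under 0.05 was called. Differences are log2 on the TPM + 1 scale, mutant minus wild type, which understates changes of low genes. The pipeline was tested on simulated data. Gene lists (42, with 944 entries and 2 dropped) were written from general knowledge, and members and lists were chosen with earlier results of these data known. They are described by counts and medians only. Named genes were the targeted genes, up to 15 called genes per direction by p (at least 2-fold, mean of at least 2 TPM, no overlap), up to 5 called or else 2 members per list by p, and rRNA loci. Alternatives covered the pseudocount, filter, scaling, moderation, fit, reference and single libraries. A promoter motif search that had been planned was not run, because promoter sequences were not used here.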

Additional observations from a re-analysis of the deposited data

Results flagged for a closer look

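Among the 139 genes examined, 4 had 1 library far from the other 5 in the 6 dark wild-type libraries, where chance flags about 1 group in 20. KCS2 was at 32.67 TPM, IPT3 at 20.17 TPM and GASA4 at 2424.13 TPM in WT_dark 4, and PDCB5 was at 6.46 TPM in WT_dark 6.

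Genes listed at 0 in all dark wild-type libraries had signal in libraries outside the comparison. AT1G64795 was at 8.42 TPM in WT_blue 2 and 6.68 TPM in cry2_blue 1, against at least 513 TPM in every fl4_dark library. MIR827 was at 4.47 TPM in cry2_blue 1. AT5G25995 was at 0.71 and 2.37 TPM in cry2_dark 1 and 3, at 3.74 and 0.99 TPM in WT_blue 1 and 2, and at 1.86 and 2.29 TPM in cry2_blue 1 and 2.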

How the results depend on the processing

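The number of called genes moved with most settings. Against the main 43 higher and 16 lower, the counts were 56 and 19 with a pseudocount of 0.1, 56 and 22 with 5, 61 and 18 where the mean had to reach 5 TPM, 54 and 19 without rRNA and organelle loci, and 45 and 12 after quantile normalization. They were 10 and 4 with no filter on low values, 25 and 8 with median-ratio scaling, and 10 and 6 without trend and robust moderation. They were 912 and 1933 in a fit of all 18 libraries (56 of the 59 kept), 117 and 130 against all 6 dark wild-type libraries, and 4797 and 4993 against WT_dark 1 to 3. Leaving out 1 library gave 14 to 673 higher and 5 to 2267 lower. The cause was not tested. Calls of 1 direction shared by both wild-type references, 46 as reported, numbered 13 with no filter, 30 with median-ratio scaling, 14 without trend and robust moderation, 1975 in the fit of 18 libraries and 17 to 2349 with 1 library left out.

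No replicate block was possible in the main comparison, because mutant libraries 1 to 3 and wild-type libraries 4 to 6 share no replicate number. Against WT_dark 1 to 3 the fit with a replicate block gave 4812 higher and 5060 lower. With and without that block, 4 named genes called in at least 1 of the comparisons changed sign against WT_dark 1 to 3: EARLI1 (1.13), AT5G15120 (0.56), FL3 (AT4G14740, -0.79, from 0.11) and the 18S locus AT3G41768 (-2.46, from 0.53). DYL1, EDS16, FKD1, FL2 and AT2G01021, called in neither, also changed sign there. In the other alternatives, all 59 called genes that could be tested kept their sign. Leaving out each library for the lists, and reading cry2_dark, were chosen after seeing the data. With TPM alone, differences of genes near 1 TPM are limited by an unknown counting error.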

Other observations

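Further lists showed scattered members. BGLU21, a beta-glucosidase in the glucosinolate list, was at 6.05, 8.25 and 4.30 TPM in wild type and 1.26, 0.18 and 1.28 TPM in the mutant (-1.94, SE 0.33, adjusted p = 0.0591). CYP83B1, of indole glucosinolate synthesis, was at 149, 118 and 109 TPM and then 71.6, 45.9 and 83.1 TPM (adjusted p = 0.105). Among 19 nitrate and sulfate genes, 6 were lower at an unadjusted p under 0.05. NIR1, nitrite reductase, was at 143, 148 and 148 TPM and then 63.7, 64.1 and 119 TPM (-0.88, SE 0.23, adjusted p = 0.117), with fl4_dark 3 closest to wild type. The chaperone BIP2 of the endoplasmic reticulum was at 50.1, 62.9 and 52.9 TPM and then 32.7, 32.8 and 41.1 TPM (-0.63, adjusted p = 0.0991), one of 7 of 20 chaperone genes lower at that threshold. ICL, the isocitrate lyase that turns stored oil into sugar, was at 418, 361 and 208 TPM and then 46.7, 160.2 and 51.7 TPM (-2.10, SE 0.55, adjusted p = 0.137). VSP1, a jasmonate-induced storage protein, was at 3.21, 1.89 and 3.22 TPM and then 15.9, 6.38 and 6.75 TPM (1.41, SE 0.34, adjusted p = 0.102). IPT3, which makes cytokinin, was at 20.2, 13.7 and 14.4 TPM and then 7.90, 4.02 and 8.85 TPM (-1.15, adjusted p = 0.0996).

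Called genes around the targeted loci were counted in annotation order after the data were seen. Within 100 loci on each side, 0 of 90 tested neighbours of FKD1, 0 of 119 of FL1, 0 of 99 of FL2 and 0 of 113 of FL3 were called. Within 250 loci, AT3G62510 lay near FKD1 (1 of 182), AT5G42825 and AT5G44582 near FL1 (2 of 287), and none near FL2 (0 of 250) or FL3 (0 of 269), where 0.304% of all genes tested were called. Within 500 loci, MIR827 joined AT3G62510 near FKD1 (2 of 318, 0.629%), and FL1 had the same 2 genes (2 of 566, 0.353%). ATM1 lay near FL2 (1 of 523, 0.191%) and EARLI1 near FL3 (1 of 539, 0.186%) in that window. Chromosomes 1 to 5 held 12 of 5096, 8 of 2961, 16 of 3828, 6 of 2932 and 17 of 4483 tested genes that were called, or 0.235%, 0.27%, 0.418%, 0.205% and 0.379%.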
